A study of Mus musculus with 4 samples.

Results

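The genes described here carry out cholesterol and fatty acid synthesis: 31 named genes, taken by symbol from the feature table, of 32285 gene IDs counted in every library. All 31 matched, each with 1 gene ID. They are grouped by role into 8 enzymes of the mevalonate to isoprenoid steps, 12 enzymes of the squalene to cholesterol steps, 5 genes of SREBP control and sterol transport, and 6 genes of fatty acid synthesis. The study asked how hypoxia changes embryoid bodies, which are aggregates of differentiating embryonic stem cells, at the level of single cells. The cells came from the mouse embryonic stem cell line R1, and the labels name no genetic change in any group. Library Hx10 is from embryoid bodies kept 8 d in normoxia and then 48 h in hypoxia, and library Nx10 is from embryoid bodies kept 10 d in normoxia. Library Hx8 is from embryoid bodies kept 7.33 d in normoxia and then 16 h in hypoxia, and library Nx8 is from embryoid bodies kept 8 d in normoxia. The labels do not state the oxygen level of the hypoxic cultures.

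Each condition is 1 library, so a difference between conditions and a difference between libraries cannot be told apart. The 16 h of hypoxia ended at day 8 and the 48 h at day 10, so length of hypoxia and age cannot be told apart either. No test was made and no p-value is given. The intervals printed are 95% intervals that cover counting error only. They leave out differences between cultures and between libraries.

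Cells make cholesterol from acetyl-CoA through mevalonate and isoprenoids to squalene, and squalene is then oxidised, cyclised and trimmed to cholesterol. Several of the later steps use molecular oxygen, as does the desaturation of fatty acids. The transcription factors SREBP-1 and SREBP-2, made from Srebf1 and Srebf2, switch on most of these enzymes when sterols in the endoplasmic reticulum are low. Scap carries the SREBP precursors to the Golgi for cleavage, and Insig proteins hold Scap back when sterols are plentiful. Dividing cells need both pathways for new membranes.

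The kept cells numbered 4615 in Hx10, 2670 in Nx10, 3344 in Hx8 and 3163 in Nx8. They held 76789304, 62221875, 78022581 and 84709052 UMIs in the same order, where a UMI (unique molecular identifier) marks 1 captured RNA molecule. Hx10 stood apart from the other libraries, with a median of 12800 UMIs per cell against 18838.5 to 23034, and 29.4% of UMIs from ribosomal protein genes against 18.4% to 20.7%. Libraries shared 1 to 5 cell barcodes per pair. Levels are given as CPM, a gene's UMI count per 1000000 UMIs of its library. As a check of the labels, Egln3, a prolyl hydroxylase gene that hypoxia-inducible factors switch on, had 65.9 CPM in Hx10, 11.7 CPM in Nx10, 62.2 CPM in Hx8 and 7.22 CPM in Nx8. Vegfa and Slc2a1, a growth factor gene and a glucose transporter gene under the same control, were also higher in both hypoxic libraries. Pluripotency markers summed to 4.36 CPM in Hx10, 6.08 CPM in Nx10, 6.77 CPM in Hx8 and 19.9 CPM in Nx8, with all 7 genes detected in every library.

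The members together took 0.0988% of all UMIs in Hx10, 0.151% in Nx10, 0.236% in Hx8 and 0.263% in Nx8. The lowest of the 4 levels was in Hx10 for 27 of the 31 members, and the highest was in Nx8 for 25. In 26 members both day 10 levels lay below both day 8 levels. The 5 exceptions were Ggps1, Srebf2, Scap, Acaca and Elovl6. For 19 members the levels were ordered Hx10, Nx10, Hx8 and Nx8 from low to high.

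**Figure D1:**
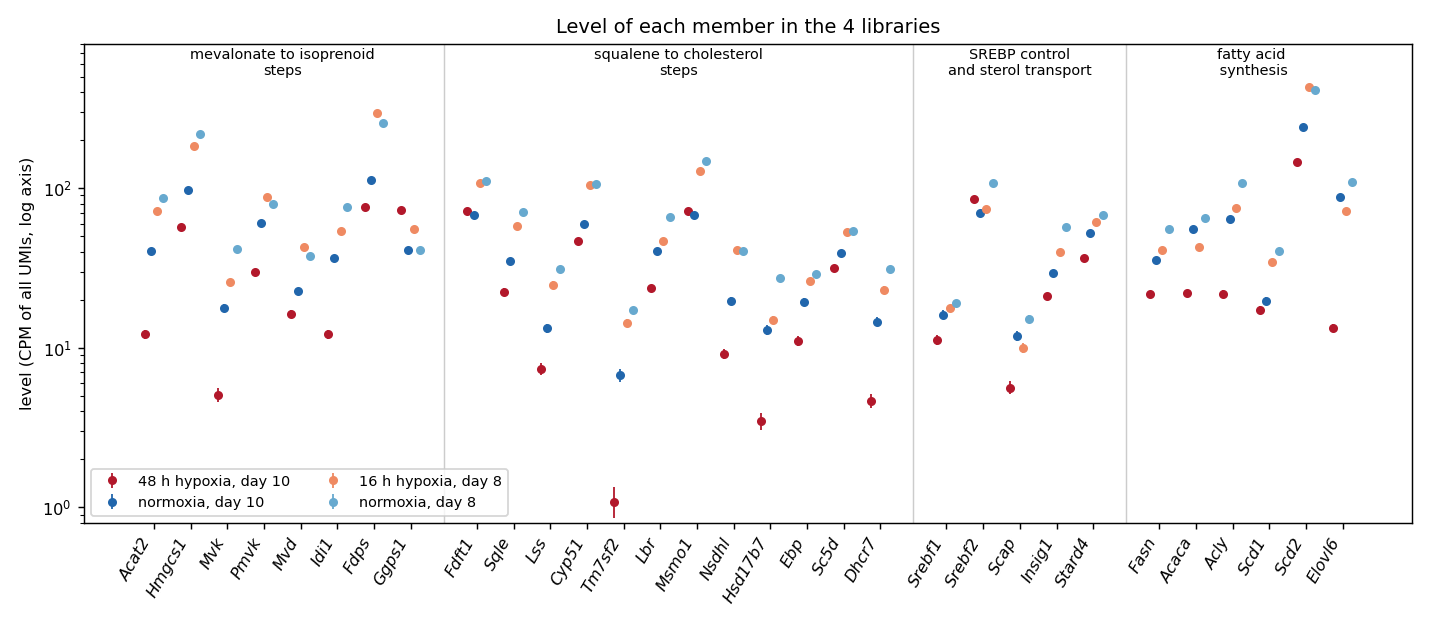
Level of each of the 31 members (x axis, grouped by role) as CPM of all UMIs on a log axis, 1 point per library; vertical bars are exact Poisson 95% intervals and cover counting error only. The Hx10 points are the lowest for 27 members, with Tm7sf2 at 1.08 CPM as the lowest point, and Ggps1, Fdft1, Msmo1 and Srebf2 are the exceptions. The share of all genes lowest in Hx10 was not counted.

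With 48 h of hypoxia, 19 of the 31 members were at least 1.5-fold lower in Hx10 than in Nx10 on the log2(CPM + 1) scale, which is 61.3% of them, and 1 member, Ggps1, was at least 1.5-fold higher. Among the 10599 genes whose mean over the libraries reached 5 CPM, 44.1% were lower and 10.4% were higher by that rule. The median log2 ratio was -0.74 over the members and -0.46 over all genes, and 22 members lay below the median of all genes. The scaling decides how far this goes. With trimmed-mean (TMM) scaling, which moved the median of all genes to 0.02, 9 members were lower (29%) and 3 higher, against 25% and 25.8% of all genes, and the median of the members was -0.25. The share of members lower was thus near the background under TMM, and above it under CPM.

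With 16 h of hypoxia the members differed little between libraries. In Hx8 against Nx8, 4 members were at least 1.5-fold lower (Mvk, Hsd17b7, Acaca and Elovl6) and 0 were higher, against 10% lower and 4.59% higher of all genes. The median of the members was -0.25 and that of all genes -0.11. With TMM scaling 1 member was lower, Hsd17b7, and 1 was higher, Ggps1, against 4.01% and 9.44% of all genes, and the median of the members was -0.03 against 0.10. The members' share is near the background under either scaling.

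Most members were lower with age in normoxia. In Nx10 against Nx8, 22 of 31 members were at least 1.5-fold lower, 71% of them, and 0 were higher, while 8.22% of all genes were lower and 7.94% higher. The median log2 ratio was -0.77 in the members and -0.08 in all genes, and 30 of 31 members were below 0. With TMM scaling 18 members were lower and 0 higher, against 5.17% and 10.7% of all genes, and 0 members changed direction. This comparison uses Nx10 and Nx8, which are also the normoxic libraries of the hypoxia comparisons, so its values are not independent of theirs. The hypoxia comparisons share no library with each other.

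**Figure D2:**
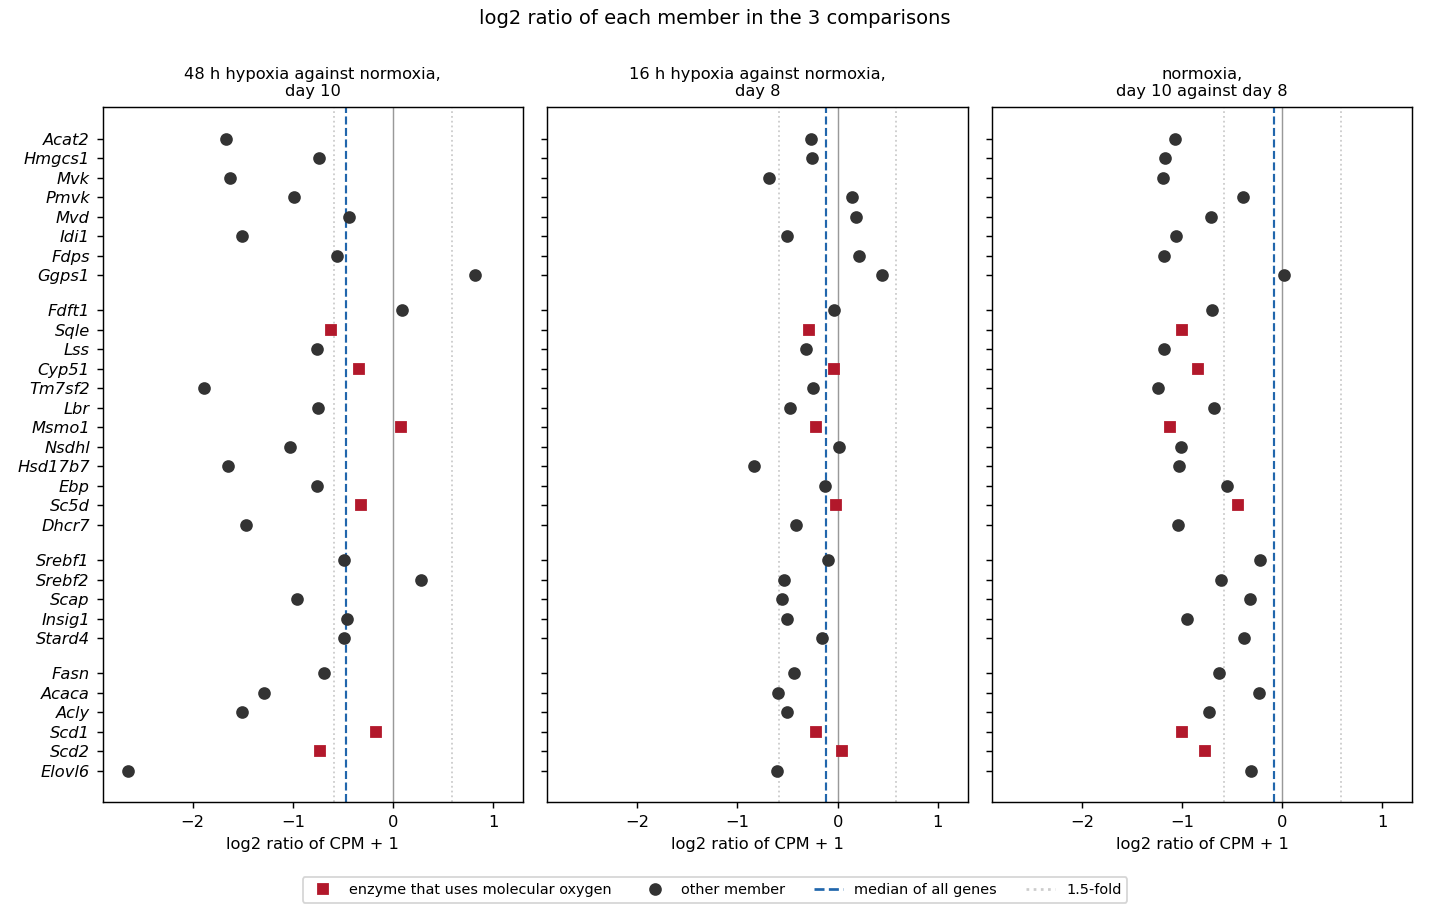
log2 ratio of CPM + 1 of each member (y axis, grouped by role) in the 3 comparisons, with red squares for enzymes that use molecular oxygen, dotted lines at 1.5-fold and a dashed line at the median of all genes. At day 10 the dashed line is at -0.46 and the members reach from -2.65 for Elovl6 to 0.81 for Ggps1; with TMM scaling Mvd, Cyp51, Sc5d, Insig1 and Scd1 lie above 0 at day 10 and 8 members change direction at day 8.

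Marker genes and RNA measures also moved between the libraries. The summed level of the proliferation markers Mki67 and Top2a was 93.9 CPM in Hx10, 411 CPM in Nx10, 275 CPM in Hx8 and 430 CPM in Nx8. Macrophage markers (11 genes) summed to 96.5 CPM in Hx10, 550 CPM in Nx10, 44.8 CPM in Hx8 and 88.9 CPM in Nx8, and endoderm or yolk sac markers (13 genes) to 61.4, 178, 659 and 1071 CPM in the same order. Erythroid markers (10 genes) summed to 35.8 CPM in Hx10, 571 CPM in Nx10, 4612 CPM in Hx8 and 4545 CPM in Nx8. The list with the largest sum was that of smooth muscle in Hx10 and that of fibroblasts in the other libraries. Fibroblast markers (10 genes) summed to 4774 CPM in Hx10, 10480 CPM in Nx10, 8672 CPM in Hx8 and 8506 CPM in Nx8. Smooth muscle markers (8 genes) summed to 7677 CPM in Hx10, 1886 CPM in Nx10, 5978 CPM in Hx8 and 4273 CPM in Nx8. None of the genes of these lists was at 0 in any library. The median share of mitochondrially encoded UMIs per cell was 0.562% in Hx10, 3.92% in Nx10, 1.85% in Hx8 and 3.95% in Nx8. The part of these differences in the members' values was not tested. In values summed over a library, fewer cells of a type and less RNA per cell cannot be told apart.

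Promoter sequence is shown for 4 members that stand for the patterns described next. Hmgcs1 and Mvk are early enzymes that were lower in both day 10 libraries than in either day 8 library. Ggps1 is the member that was higher in both hypoxic libraries. Insig1 is the member whose difference in CPM ran in opposite directions in 2 cell classes at both ages. The windows are the 250 bases before the RefSeq start on build GRCm38.p6, shortened to 201 bases for Insig1 where the counted gene begins. They lie at chr13:119690101-119690350, chr5:114444019-114444268 and chr5:28071162-28071362 on the plus strand and chr13:14063489-14063738 on the minus strand. Capitals mark CCAAT on either strand (read as ATTGG on the other strand), TCACNCCAC in Hmgcs1 and CACGTG in Insig1.
Hmgcs1: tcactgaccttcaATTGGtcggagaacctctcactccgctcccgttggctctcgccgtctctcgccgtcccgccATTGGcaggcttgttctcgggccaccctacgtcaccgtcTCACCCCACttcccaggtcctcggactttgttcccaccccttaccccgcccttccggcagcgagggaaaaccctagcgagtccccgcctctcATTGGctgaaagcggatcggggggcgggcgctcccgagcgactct
Mvk: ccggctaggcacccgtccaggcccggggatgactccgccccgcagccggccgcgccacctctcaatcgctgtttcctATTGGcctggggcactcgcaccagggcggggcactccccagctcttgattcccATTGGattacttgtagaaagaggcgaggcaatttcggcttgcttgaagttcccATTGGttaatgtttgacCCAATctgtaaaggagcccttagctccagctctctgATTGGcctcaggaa
Ggps1: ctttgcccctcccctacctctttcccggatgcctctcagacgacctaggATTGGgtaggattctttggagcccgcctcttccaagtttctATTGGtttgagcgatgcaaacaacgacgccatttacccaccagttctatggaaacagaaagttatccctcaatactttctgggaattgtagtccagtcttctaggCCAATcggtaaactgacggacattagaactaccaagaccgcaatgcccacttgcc
Insig1: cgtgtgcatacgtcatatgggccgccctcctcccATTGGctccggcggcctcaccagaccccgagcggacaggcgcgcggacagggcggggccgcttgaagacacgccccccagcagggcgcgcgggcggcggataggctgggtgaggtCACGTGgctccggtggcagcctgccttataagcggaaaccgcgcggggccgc

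CCAAT is the box bound by the factor NF-Y, which is known to act beside SREBP at sterol genes. The window of Mvk holds it 5 times, those of Hmgcs1 and Ggps1 3 times each, and that of Insig1 once. A window was found for 25 members. CCAAT was present in 20 of these, 80%, against 37.5% of 27025 genes with a window. Those 27025 genes were not limited to expressed genes and not matched for base content, here and for the motifs below. The sterol regulatory element core TCACNCCAC was in Hmgcs1 alone, 4% of the members against 1.22% of genes. The E-box CACGTG was in 5 members, 20%, against 6.86% of genes. The hypoxia response cores were searched as ACGTG, present in 6 members or 24% against 18.5% of genes, and as GCGTG, present in 13 members or 52% against 30.9% of genes. Both strands were read, and ACGTG lies within every CACGTG. A match is a run of letters in a window and not a site shown to be bound. Fdps, Fdft1, Sqle, Stard4, Scd1 and Scd2 had no window.

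Among the mevalonate and isoprenoid enzymes, 5 of 8 were at least 1.5-fold lower and 1 was higher in Hx10 than in Nx10, against 44.1% and 10.4% of all genes. With TMM scaling 3 were lower (Acat2, Mvk and Idi1) and 1 was higher, against 25% and 25.8% of all genes. Their summed level was 282 CPM in Hx10, 428 CPM in Nx10, 818 CPM in Hx8 and 838 CPM in Nx8. Acat2, which joins acetyl-CoA units at the start of the path, had 12.1 CPM in Hx10, 40.5 CPM in Nx10, 71.5 CPM in Hx8 and 86.4 CPM in Nx8. Hmgcs1, the synthase that makes HMG-CoA, had 57.4 CPM in Hx10, 96.7 CPM in Nx10, 184 CPM in Hx8 and 219 CPM in Nx8. Both were lowest in Hx10, and both were higher in either day 8 library than in either day 10 library. The plain ratio of Hx10 to Nx10 was 0.299 (95% interval 0.277 to 0.322) for Acat2 and 0.594 (95% interval 0.571 to 0.618) for Hmgcs1. With TMM scaling the log2 ratio of Hmgcs1 was -0.25, short of 1.5-fold, while that of Acat2 was -1.19.

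Mvk, Pmvk and Mvd phosphorylate and decarboxylate mevalonate in turn. Mvk had 5.08 CPM in Hx10, 17.7 CPM in Nx10, 25.6 CPM in Hx8 and 41.8 CPM in Nx8, and it was also at least 1.5-fold lower with 16 h of hypoxia (log2 ratio -0.68, and -0.46 with TMM scaling). Pmvk had 29.9 CPM in Hx10, 60.2 CPM in Nx10, 87.5 CPM in Hx8 and 79.2 CPM in Nx8. Mvd had 16.4 CPM in Hx10, 22.5 CPM in Nx10, 42.8 CPM in Hx8 and 37.5 CPM in Nx8. Mvk was thus lower in the hypoxic library at both ages under both scalings. Pmvk and Mvd were slightly higher in Hx8 than in Nx8, and lower in Hx10 than in Nx10 except that Mvd was level with TMM scaling at 0.04.

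Idi1, which isomerises isopentenyl diphosphate, had 12.1 CPM in Hx10, 36.3 CPM in Nx10, 53.6 CPM in Hx8 and 76.6 CPM in Nx8. Fdps, which builds farnesyl diphosphate, had 75.97 CPM in Hx10, 113 CPM in Nx10, 298 CPM in Hx8 and 257 CPM in Nx8. These neighbouring steps differed in how they stood with hypoxia. The log2 ratio of Idi1 was -1.504 at day 10 and -0.51 at day 8, and it was below 0 with TMM scaling in both (-1.03 and -0.28). The log2 ratio of Fdps was -0.56 at day 10, where TMM scaling gave -0.07, and 0.21 at day 8.

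Ggps1 makes geranylgeranyl diphosphate, the lipid that is joined to Rab proteins, and so leads away from cholesterol. It had 72.95 CPM in Hx10, 41.1 CPM in Nx10, 55.8 CPM in Hx8 and 40.7 CPM in Nx8. In CPM its normoxic levels at day 10 and day 8 differed by a log2 ratio of 0.01, within counting error, and both hypoxic levels lay above them. With TMM scaling the normoxic levels differed by 0.13. The plain ratio was 1.78 (95% interval 1.69 to 1.86) for Hx10 over Nx10 and 1.37 (95% interval 1.31 to 1.43) for Hx8 over Nx8. It was the sole member above 0 in both hypoxia comparisons under every scaling and at least 1.5-fold higher at day 10. The gene lies at chr13:14050659-14063488 on the minus strand of mm10, and 257 bases of it overlap Arid4b on the opposite strand, away from its counted end.

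Of the 12 enzymes from squalene to cholesterol, 8 were at least 1.5-fold lower in Hx10 than in Nx10 and 0 were higher, against 44.1% and 10.4% of all genes. With TMM scaling 3 were lower (Tm7sf2, Hsd17b7 and Dhcr7), which is 25% of them and equal to the 25% of all genes, and 1 was higher, Fdft1 at 0.59. Their summed level was 305 CPM in Hx10, 396 CPM in Nx10, 642 CPM in Hx8 and 731 CPM in Nx8. Most of the difference in this sum was with age, where the sum in Nx10 was 0.541 times that in Nx8, while that in Hx10 was 0.771 times that in Nx10. Fdft1, which joins a pair of farnesyl units into squalene, had 72.2 CPM in Hx10, 67.7 CPM in Nx10, 108 CPM in Hx8 and 110.3 CPM in Nx8. Msmo1, an oxygen-using methyl sterol oxidase, had 71.6 CPM in Hx10, 67.5 CPM in Nx10, 127 CPM in Hx8 and 148 CPM in Nx8. Both were slightly higher in Hx10 than in Nx10, with plain ratios of 1.07 (95% interval 1.02 to 1.11) and 1.06 (95% interval 1.02 to 1.10), and both were higher in either day 8 library.

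Tm7sf2 and Lbr encode sterol reductases that can carry out the same step. Tm7sf2 had 1.08 CPM in Hx10, 6.70 CPM in Nx10, 14.4 CPM in Hx8 and 17.2 CPM in Nx8, and its plain ratio of Hx10 to Nx10 was 0.161 (95% interval 0.126 to 0.205), from 83 UMIs in Hx10 and 417 UMIs in Nx10. Lbr, whose protein also anchors chromatin at the nuclear envelope, had 23.7 CPM in Hx10, 40.5 CPM in Nx10, 46.8 CPM in Hx8 and 65.5 CPM in Nx8. Tm7sf2 had the lowest log2 ratio of the 20 sterol enzymes at day 10, -1.89, and -1.57 with TMM scaling. Lbr was lower in Hx10 by a log2 ratio of -0.74, which with TMM scaling was -0.26. The span of Tm7sf2 shares 532 bases with Vps51 on the same strand, away from its counted end.

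Hsd17b7, a ketosteroid reductase, had 3.46 CPM in Hx10, 12.97 CPM in Nx10, 14.97 CPM in Hx8 and 27.5 CPM in Nx8. It was at least 1.5-fold lower in the hypoxic library at both ages, and this held with TMM scaling (-1.23 at day 10 and -0.62 at day 8). Dhcr7, the reductase of the last steps, had 4.64 CPM in Hx10, 14.5 CPM in Nx10, 23.1 CPM in Hx8 and 31.1 CPM in Nx8. Nsdhl, a sterol dehydrogenase, had 9.12 CPM in Hx10, 19.6 CPM in Nx10, 40.9 CPM in Hx8 and 40.5 CPM in Nx8. Hsd17b7 was lower in both hypoxic libraries, and Dhcr7 was lower in both and more so at day 10. In CPM, Nsdhl did not differ at day 8 beyond counting error, with a plain ratio of 1.01 (95% interval 0.962 to 1.06). With TMM scaling its log2 ratio at day 8 was 0.23. Lss, which cyclises the oxidised squalene, and Ebp, a sterol isomerase, had log2 ratios of -0.76 and -0.76 at day 10 and -0.32 and -0.13 at day 8. Their day 10 ratios with TMM scaling were -0.31 and -0.29, and that of Ebp at day 8 turned to 0.09.

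Several sterol enzymes consume molecular oxygen. Sqle, which puts oxygen onto squalene, had 22.4 CPM in Hx10, 35.04 CPM in Nx10, 58.1 CPM in Hx8 and 71.1 CPM in Nx8. Cyp51, the lanosterol demethylase, had 46.8 CPM in Hx10, 59.3 CPM in Nx10, 104 CPM in Hx8 and 107 CPM in Nx8. Sc5d, a sterol desaturase, had 31.4 CPM in Hx10, 39.3 CPM in Nx10, 53.1 CPM in Hx8 and 53.6 CPM in Nx8. With Msmo1 these are the 4 sterol enzymes that use oxygen, and 1 of them, Sqle, was at least 1.5-fold lower in Hx10 than in Nx10, with a median log2 ratio of -0.32. Of the 16 other sterol enzymes 12 were lower and 1 was higher, with a median of -0.87, while 44.1% of all genes were lower and 10.4% higher. With TMM scaling 0 of the 4 and 6 of the 16 were lower, and 0 of the 4 and 2 of the 16 were higher (Ggps1 and Fdft1), against 25% and 25.8% of all genes. With 16 h of hypoxia the medians were -0.13 for the 4 and -0.25 for the 16. With TMM scaling Cyp51, Sc5d and Msmo1 were above 0 in both hypoxia comparisons, at 0.16, 0.17 and 0.58 at day 10. These are counts in single libraries, and the difference between the groups of enzymes was not tested.

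Of the 5 genes of SREBP control and sterol transport, 1, Scap, was at least 1.5-fold lower in Hx10 than in Nx10 and 0 were higher, against 44.1% and 10.4% of all genes. With TMM scaling 0 were lower and 1, Srebf2, was higher, against 25% and 25.8% of all genes. Srebf2, which encodes the SREBP that acts mainly on sterol genes, had 85.1 CPM in Hx10, 69.8 CPM in Nx10, 73.7 CPM in Hx8 and 107 CPM in Nx8. It was higher in Hx10 than in Nx10 and lower in Hx8 than in Nx8, with plain ratios of 1.22 (95% interval 1.17 to 1.27) and 0.688 (95% interval 0.665 to 0.711), and TMM scaling kept both directions (0.78 and -0.31). Srebf1, whose products act mainly on fatty acid genes, had 11.2 CPM in Hx10, 16.1 CPM in Nx10, 17.6 CPM in Hx8 and 18.96 CPM in Nx8. Scap had 5.63 CPM in Hx10, 11.9 CPM in Nx10, 9.95 CPM in Hx8 and 15.1 CPM in Nx8, and its log2 ratio was -0.96 at day 10 and -0.56 at day 8. Scap was therefore lower in the hypoxic library at both ages, and with TMM scaling neither ratio reached 1.5-fold (-0.52 and -0.35). Stard4, a carrier of sterols between membranes, had log2 ratios of -0.49 at day 10 and -0.16 at day 8, where TMM scaling gave 0.00 and 0.07.

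Insig1 is itself switched on by SREBP and serves as a sensor of its activity. It had 20.98 CPM in Hx10, 29.2 CPM in Nx10, 39.9 CPM in Hx8 and 57.2 CPM in Nx8. Its level was lower in the hypoxic library by similar amounts at both ages, -0.46 at day 10 and -0.51 at day 8, though with TMM scaling the day 10 value was 0.02. Insig2, the related anchor that SREBP does not drive, had 96.8 CPM in Hx10, 45.2 CPM in Nx10, 78.2 CPM in Hx8 and 43.5 CPM in Nx8. Insig2 was higher in both hypoxic libraries, with plain ratios of 2.14 (95% interval 2.05 to 2.24) and 1.80 (95% interval 1.73 to 1.87), while its normoxic levels differed by a log2 ratio of 0.05. Ggps1 and Insig2 thus shared the same form, level between ages in normoxia and higher in both hypoxic libraries, at 1.31 and 1.58 at day 10 with TMM scaling.

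In fatty acid synthesis, 5 of 6 genes were at least 1.5-fold lower in Hx10 than in Nx10, against 44.1% of all genes, and 3 of 6 with TMM scaling (Acaca, Acly and Elovl6), against 25%. The summed level was 242 CPM in Hx10, 505 CPM in Nx10, 693 CPM in Hx8 and 792 CPM in Nx8. The sum in Hx10 was 0.478 times that in Nx10, a larger step than the 0.713 of the 20 sterol enzymes, while with age the order was reversed, at 0.638 for the fatty acid genes and 0.524 for the sterol enzymes. Elovl6, the elongase that lengthens palmitate, had 13.3 CPM in Hx10, 88.5 CPM in Nx10, 71.95 CPM in Hx8 and 109.9 CPM in Nx8. Its plain ratio of Hx10 to Nx10 was 0.150 (95% interval 0.140 to 0.161), the lowest log2 ratio of any member at -2.65 and still -2.17 with TMM scaling. Hx10 stood far below the other libraries for this gene, and Nx10 lay between the day 8 libraries. The plain ratio of Tm7sf2 was close to that of Elovl6, at 0.161 (95% interval 0.126 to 0.205). The added 1 CPM weighs more on Tm7sf2, which had 1.08 CPM in Hx10.

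Acly, which makes cytosolic acetyl-CoA from citrate, had 21.9 CPM in Hx10, 64.1 CPM in Nx10, 75.1 CPM in Hx8 and 107 CPM in Nx8. Acaca, the acetyl-CoA carboxylase that commits it to fatty acids, had 22.1 CPM in Hx10, 55.5 CPM in Nx10, 42.8 CPM in Hx8 and 65.2 CPM in Nx8. Fasn, the fatty acid synthase, had 21.6 CPM in Hx10, 35.3 CPM in Nx10, 40.7 CPM in Hx8 and 55.3 CPM in Nx8. All were lowest in Hx10, and the ratios of Acly and Acaca remained past 1.5-fold with TMM scaling (-1.03 and -0.81), while that of Fasn did not (-0.20). Acaca and Elovl6 were also at least 1.5-fold lower in Hx8 than in Nx8, at -0.60 and -0.60, values just past the threshold of 0.585 that TMM scaling moved to -0.37 and -0.38.

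The stearoyl-CoA desaturases Scd1 and Scd2 use oxygen to place a double bond in fatty acids. Scd2 had 145 CPM in Hx10, 242 CPM in Nx10, 428 CPM in Hx8 and 414 CPM in Nx8. Scd1 had 17.3 CPM in Hx10, 19.6 CPM in Nx10, 34.4 CPM in Hx8 and 40.1 CPM in Nx8. The pair differed with 48 h of hypoxia, Scd2 with a log2 ratio of -0.73 and Scd1 with -0.17, where TMM scaling gave -0.23 and 0.31. With age in normoxia both were lower, at -0.77 and -0.998.

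Other genes of lipid metabolism gave a wider setting: 43 of the 44 listed were in the files and 38 reached a mean of 5 CPM. In Hx10 against Nx10, 16 of these 38 were at least 1.5-fold lower and 2 were higher, 42.1% and 5.26% of them against 44.1% and 10.4% of all genes. Their median was -0.48, close to the -0.46 of all genes. With TMM scaling 8 were lower and 11 higher, 21.1% and 28.9% against 25% and 25.8%. In Hx8 against Nx8, 3 were lower and 2 higher, 7.89% and 5.26% against 10% and 4.59%, with a median of -0.18. With age 6 were lower and 1 higher, 15.8% and 2.63% against 8.22% and 7.94%, with a median of -0.23. The share lower with hypoxia was thus near the background at both ages. Ranked by CPM, the 6 of largest ratio at day 10 were all lower in Hx10. With TMM scaling the largest was that of Insig2, which was higher at 1.58. Fads2 and Fads1, desaturases of polyunsaturated fatty acids, had 8.97 and 13.8 CPM in Hx10 against 34.8 and 38.7 CPM in Nx10. Hsd17b12, a reductase of the elongation cycle in which Elovl6 works, had 18.9 CPM in Hx10 against 65.6 CPM in Nx10. Mbtps1, the protease that makes the first SREBP cut in the Golgi, had 22.1 CPM in Hx10 against 60.3 CPM in Nx10. All 4 stayed at least 1.5-fold lower with TMM scaling, with log2 ratios of -1.38, -0.95, -1.26 and -0.92.

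Erlin2, an endoplasmic reticulum protein of sterol control, and Mylip, a ubiquitin ligase that removes lipoprotein receptors, completed the 6 largest at day 10, at -1.30 and -1.74. At day 8 the largest after Insig2 was Me1, the malic enzyme that supplies NADPH for fatty acid synthesis, with 244 CPM in Hx10, 148 CPM in Nx10, 252 CPM in Hx8 and 148 CPM in Nx8. Me1 had nearly equal levels in the normoxic libraries and higher levels in both hypoxic ones, while Fasn, Acaca and Acly were lower in both. Abca1, the sterol exporter, was lower with hypoxia at day 8 (-0.69) and higher with age in normoxia (1.81). Erlin1 and Hacd3 had log2 ratios of -0.68 and -0.58 at day 8.

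The cells were next split into classes by clustering without the member genes and naming clusters from fixed markers. Mesenchymal-like cells made up most of every library, with 4311 cells in Hx10, 2389 in Nx10, 2894 in Hx8 and 2685 in Nx8. This class joins clusters matched to fibroblast, to smooth muscle or myofibroblast, and to mesothelial or epicardial markers. The last were clusters c10 and c16, with 613 and 400 cells of Nx10, and c18, with 289 cells of Hx10. Endoderm or yolk sac-like cells (called endoderm-like below) numbered 64 in Hx10, 65 in Nx10, 194 in Hx8 and 241 in Nx8. Macrophage-like cells numbered 119 in Hx10, 183 in Nx10, 38 in Hx8 and 51 in Nx8, and erythroid-like cells 11, 11, 153 and 109 in the same order. Only classes with at least 50 cells in both libraries were compared. Class and cluster values are in CPM, and TMM scaling was not applied to them. The part of RNA free in the droplets in the class levels was not tested.

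Within mesenchymal-like cells the members stood much as in the whole libraries. In Hx10 against Nx10, 19 of 31 were at least 1.5-fold lower and 1 higher, against 37.8% and 9.32% of genes in that class, with medians of -0.75 for members and -0.36 for all genes. In Hx8 against Nx8, 6 were lower and 0 higher, against 11.1% and 3.81%. With age in normoxia, 23 were lower and 0 higher, against 9.37% and 7.68%. Different clusters held this class in each library: c18 to c22 and c9 in Hx10, mainly c7, c10, c16 and c17 in Nx10, c4, c5 and c12 in Hx8, and c1 and c5 in Nx8. A difference within the class and a shift between its clusters therefore cannot be told apart here.

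Endoderm-like cells all lay in cluster c0 and differed from the mesenchymal-like cells at day 8. In Hx8 against Nx8, 21 of 31 members were above 0, 5 were at least 1.5-fold higher (Cyp51, Msmo1, Sc5d, Insig1 and Scd2) and 2 were lower (Mvk and Hsd17b7), against 9.26% higher and 13.1% lower of genes in that class, with medians of 0.30 for members and -0.07 for all genes. The summed level of the 20 sterol enzymes in these cells was 1502 CPM in Hx8 and 1174 CPM in Nx8, a ratio of 1.28 (95% interval 1.24 to 1.32). In mesenchymal-like cells it was 1453 CPM in Hx8 and 1600.1 CPM in Nx8. Insig1 in endoderm-like cells had 111 CPM in Hx8 and 46.2 CPM in Nx8, from 558 and 306 UMIs, against 35.2 CPM in Hx8 and 58.9 CPM in Nx8 in mesenchymal-like cells. The 95% interval of its plain ratio was 2.08 to 2.77 in endoderm-like and 0.567 to 0.627 in mesenchymal-like cells. These cells were 5.80% of the cells in Hx8 and 7.62% in Nx8, with medians of 20015.5 and 23846 UMIs per cell.

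At day 10 the endoderm-like cells no longer stood apart in most members. In Hx10 against Nx10, 21 of 31 members were at least 1.5-fold lower and 2 were higher, Ggps1 and Insig1, against 35.9% and 13.5% of genes with at least 20 UMIs in that class, a floor that Tm7sf2 missed. The summed sterol level was 775 CPM in Hx10 and 1161 CPM in Nx10, and the fatty acid sum was 205 CPM in Hx10 and 600.3 CPM in Nx10. Insig1 again ran the other way, with 78.7 CPM in Hx10 and 46.7 CPM in Nx10, from 64 and 63 UMIs, and a plain ratio interval of 1.17 to 2.43. The endoderm-like cells of Hx10 were shallow, at a median of 5776 UMIs per cell against 19156 in Nx10. With age in normoxia, 2 members were lower and 1 higher in this class, against 15.6% and 11.6% of genes, with a median of 0.01, so the age difference of the mesenchymal-like cells was not seen at this depth in 65 and 241 cells.

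**Figure D3:**
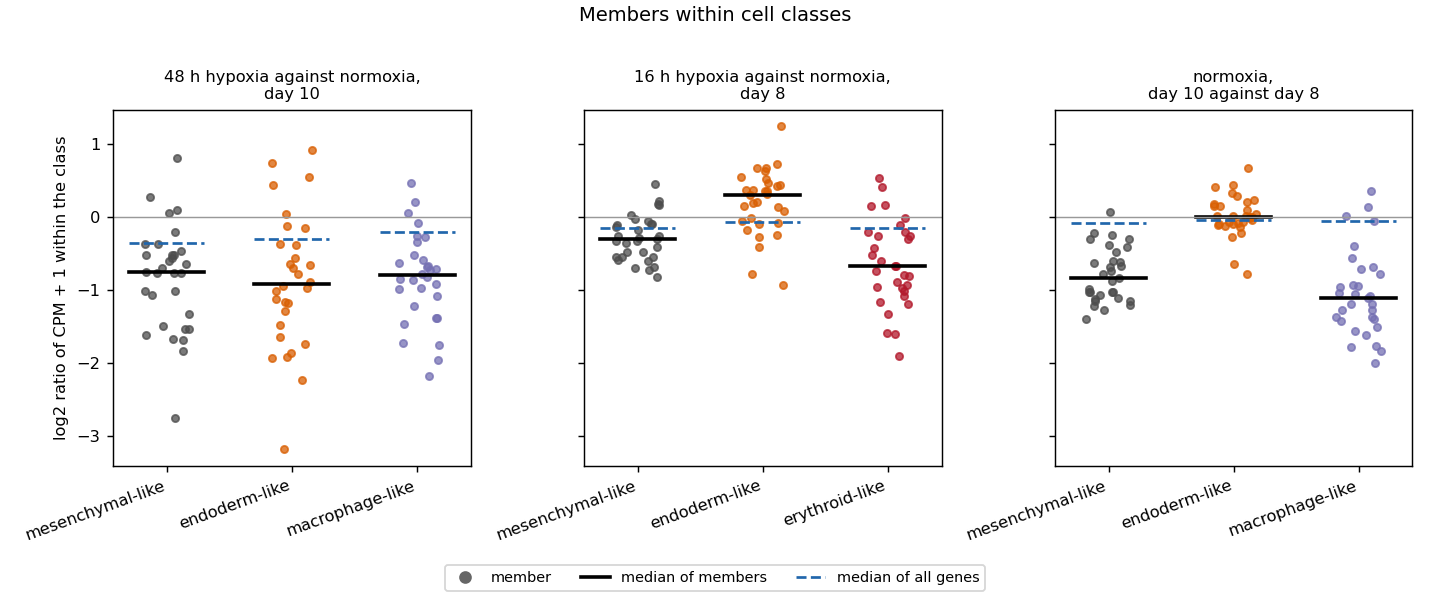
log2 ratio of CPM + 1 of the members within cell classes that had at least 50 cells in both libraries, for the 3 comparisons; points are members with at least 20 UMIs, black bars their median and dashed bars the median of all genes. At day 8 the endoderm-like median is 0.30 where the mesenchymal-like one is -0.30 and the erythroid-like one -0.68.

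Macrophage-like cells could be compared at day 10 and with age. In Hx10 against Nx10, 23 of 31 members were at least 1.5-fold lower and 0 higher, against 29.1% and 14.5% of genes with at least 20 UMIs in that class, a floor that Scd1 missed. In Nx10 against Nx8, 25 were lower and 0 higher, against 22.5% and 20.4%. The summed sterol level in these cells was 389 CPM in Hx10, 644 CPM in Nx10 and 1493 CPM in Nx8. Erythroid-like cells could be compared at day 8, where 18 members were lower and 0 higher in Hx8 than in Nx8, against 27.3% and 17.7% of genes. Acaca had the lowest ratio there, with 10.03 CPM in Hx8 and 40.3 CPM in Nx8 from 24 and 80 UMIs. Ggps1 and Insig2 were above 0 in every class compared, in both hypoxia comparisons. Me1 was too, and in macrophage-like cells it had 78.6 CPM in Hx10 and 5.69 CPM in Nx10.

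Among clusters that held at least 50 cells in both day 8 libraries, the sign of the day 8 difference in CPM depended on the cluster. The summed sterol level was higher in Hx8 than in Nx8 in c0 and in the mesenchymal-like clusters c12 and c6, which express Actg2 and Loxl1. In c12 it was 1868 CPM in Hx8 and 1608 CPM in Nx8, a ratio of 1.16 (95% interval 1.14 to 1.19). It was lower in the mesenchymal-like c1, which held 1247 cells of Nx8 and 184 of Hx8, at 878 CPM in Hx8 and 1361 CPM in Nx8, a ratio of 0.645 (95% interval 0.620 to 0.671). In c5, the mesenchymal-like cluster with the most Mki67 and Top2a at day 8, it was 1327 CPM in Hx8 and 1676 CPM in Nx8. The fatty acid sum had the same sign as the sterol sum in each of these clusters, but its genes did not all move alike. Scd2 had 289 CPM in Hx8 and 181 CPM in Nx8 in c0, 564 and 472 CPM in c12, and 614 and 446 CPM in c6. Scd1 was also higher in Hx8 in these clusters, while Acaca and Acly were lower in all of them. Fasn was lower in c0 alone, and Elovl6 was lower in c12 and c6. The interval of the sterol ratio included 1 in c2 alone.

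**Figure D4:**
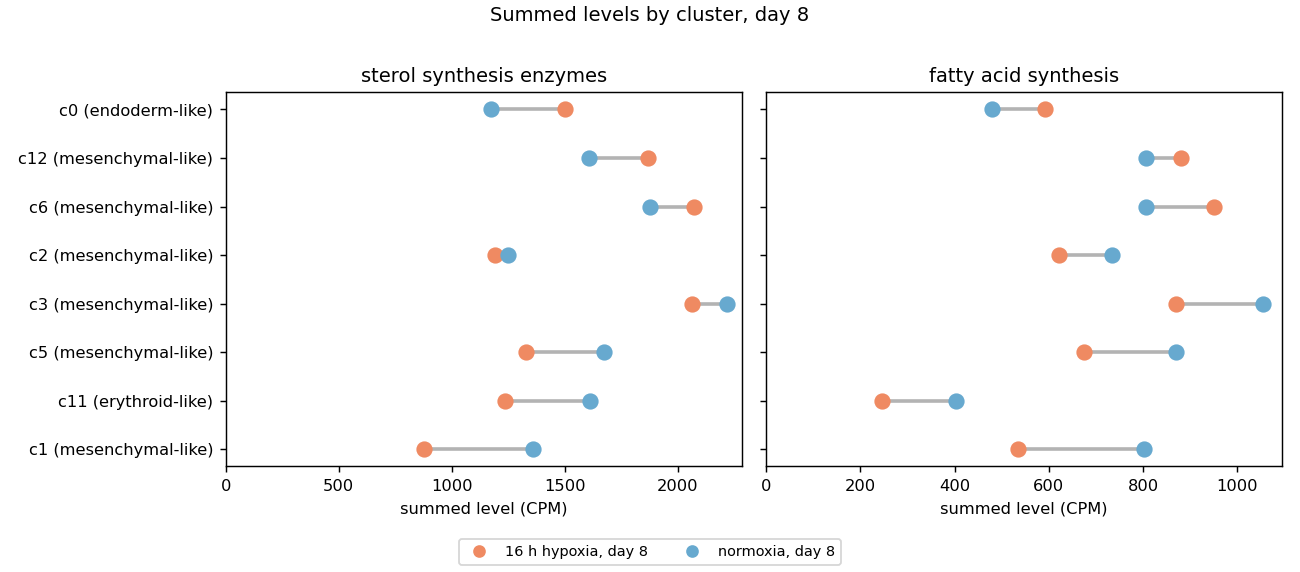
Summed CPM of the 20 sterol synthesis enzymes (left) and the 6 fatty acid synthesis genes (right) in each cluster with at least 50 cells in both day 8 libraries; orange points are Hx8 and blue points Nx8. Orange lies to the right of blue in c0, c12 and c6 and to the left in the other 5 clusters.

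With age in normoxia c12 differed the other way. In c12 the sterol sum was 615 CPM in Nx10 and 1608 CPM in Nx8, a ratio of 0.382 (95% interval 0.368 to 0.397) in cells of one cluster with similar depth, 33779.5 and 32853 median UMIs. In c0 the ratio of the sterol sum was 0.988 (95% interval 0.936 to 1.04), which includes 1, while the fatty acid sum was 600.3 CPM in Nx10 and 479 CPM in Nx8, a ratio of 1.25 (95% interval 1.16 to 1.36). Within that sum Scd2 had 289 CPM in Nx10 and 181 CPM in Nx8. Acaca, Acly and Scd1 were also higher in Nx10, and Fasn and Elovl6 were lower.

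Among clusters of one library, in Nx10 the sterol sum was 1134 CPM in c16, where Mki67 and Top2a summed to 1482 CPM, and 847 CPM in c10 which also leads with Upk3b and Muc16 and had 53.5 CPM of Mki67 and Top2a. In Hx10 it was 709 CPM in the cycling c18 and 781 CPM in c19, where Mki67 and Top2a summed to 43.3 CPM. Of the other mesenchymal-like clusters of Hx10, c20, c21 and c22 had 567, 538 and 567 CPM, against 465, 847 and 810.3 CPM in c7, c10 and c17 of Nx10, so the levels of these clusters overlap. The mesenchymal-like cluster that held at least 50 cells in each day 10 library was c9, with 222 cells in Hx10 and 91 in Nx10. Its sterol sum was 449.7 CPM in Hx10 and 1183 CPM in Nx10, a ratio of 0.380 (95% interval 0.345 to 0.419). Its fatty acid sum was 179.9 CPM in Hx10 and 454 CPM in Nx10, a ratio of 0.397 (95% interval 0.339 to 0.464). Both sums of c9 were lower in Hx10, and its cells had medians of 8601.5 UMIs in Hx10 and 3859 UMIs in Nx10. Mki67 and Top2a summed to 40.04 CPM in c9 of Hx10 and 208 CPM in c9 of Nx10, and their part in the difference was not tested.

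Across clusters of one library, most sterol enzymes followed the mean of the other sterol enzymes. The Spearman correlation of each enzyme with the mean of the other sterol enzymes had a median of 0.56 over 8 clusters in Hx10, 0.81 over 8 in Nx10, 0.85 over 9 in Hx8 and 0.70 over 9 in Nx8. Above 0.5 were 12 of the 20 enzymes in Hx10, 16 in Nx10, 16 in Hx8 and 13 in Nx8. The share of all genes above 0.5 was not computed, so whether these counts exceed it cannot be said. Sqle had 1, 0.881, 0.9 and 1 in that order, and Tm7sf2 had -0.762, 0.619, 0.867 and 0.683. Ggps1 had 0.524, -0.0238, -0.267 and -0.433, so it did not follow the others in the normoxic libraries or in Hx8. The fatty acid genes had medians of 0.30, 0.58, 0.80 and 0.63. Acly had 0.0476 in Hx10 and 1 in Nx10. The clusters of a library share its depth and scaling, these values describe few points, and no test was made of them.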

How the data were processed

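Each of the 4 libraries was read from its deposited matrix, barcode and feature files. The values are raw UMI counts per gene and cell, made by the authors with Cell Ranger 7.1.0 on build mm10, per the submitters' processing notes, from a droplet library that tags the end of polyadenylated RNA, per the labels' protocols. Neither source says whether intronic reads were counted. All values were found to be whole numbers, and the library totals differ.

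Cells needed 500 or more detected genes and a mitochondrial share of no more than 15%. Scrublet, through scanpy 1.11.5, called 1 cell in Hx10, 9 in Nx10, 1 in Hx8 and 5 in Nx8, which were dropped. These are under 0.5% of cells, so the caller is taken not to have worked and doublets remain. UMIs were added over the kept cells, divided by the total to CPM and compared as log2 ratios with 1 CPM added (pandas 2.3.3 and scipy 1.17.1 under Python 3.11.15). "Lower" and "higher" in counts of members mean at least 1.5-fold on that scale. Level intervals are exact Poisson and ratio intervals exact conditional binomial. TMM factors (edgeR 4.0.16) and size factors (DESeq2 1.42.0, both in R 4.3.3) served as other scalings only, and neither tool's test was run.

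Clusters came from 2000 variable genes without the members, 30 principal components, 15 neighbours and Leiden resolution 1 (igraph 0.11.9). A cluster was named from fixed markers, with at least 3 of them detected; mesenchymal clusters were judged against the other named classes, a choice made after seeing the data. Coordinates are from GENCODE M21 (mm10), to which 32158 of 32285 IDs matched, and promoter sequences from RefSeq on GRCm38.p6.

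The members and lists were chosen with earlier results of these data known. All members may be named; of the other lipid genes, those named are the 6 of largest log2 ratio in each hypoxia comparison, except 1 that is not reported here, and no value of the rest is given singly. The calculations were tested on simulated data.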

Additional observations from a re-analysis of the deposited data

Results flagged for a closer look

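In 6 members the log2 ratio of hypoxia over normoxia had opposite signs at the 2 ages, with both counting intervals excluding a ratio of 1, and with 1 library per condition the difference was not tested. The ratio at day 10 minus that at day 8 was -1.13 for Pmvk, -0.62 for Mvd, -0.77 for Fdps and -0.78 for Scd2, which were higher with 16 h and lower with 48 h of hypoxia. It was 0.30 for Msmo1 and 0.82 for Srebf2, which were lower with 16 h and higher with 48 h. Length of hypoxia and age changed together, so their parts in these differences cannot be told apart. With TMM scaling Mvd was above 0 at both ages (0.04 and 0.41), as was Msmo1 (0.58 and 0.01), so their signs then no longer differed. Pmvk, Fdps, Srebf2 and Scd2 kept opposite signs, Fdps with only -0.07 at day 10.

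Between endoderm-like and mesenchymal-like cells, 3 members had opposite signs at day 8 and 1 at day 10, counting those whose intervals excluded a ratio of 1 in both classes and that reached 1.5-fold in at least 1 of them, and this difference was not tested either. The log2 ratio in endoderm-like minus that in mesenchymal-like cells was 1.97 for Insig1, 1.01 for Msmo1 and 0.77 for Cyp51 with 16 h of hypoxia, and 1.26 for Insig1 with 48 h. In CPM, Insig1 was the member that differed this way at both ages. TMM scaling was not applied to the classes. Over whole libraries it gave log2 ratios of 0.19 for Cyp51 and 0.01 for Msmo1 at day 8, and 0.02 for Insig1 at day 10. The signs of these in mesenchymal-like cells may therefore depend on the scaling. Insig1 at day 8 stayed below 0 over whole libraries, at -0.29. At day 10 the endoderm-like value of Insig1 rests on 64 UMIs in Hx10 and 63 UMIs in Nx10, from 64 and 65 cells.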

How the results depend on the processing

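The 9 alternatives were set for the median and for the counts of members lower and higher in each comparison. With age in normoxia every one of them kept the direction and the counts within 1.5 times, with 16 to 23 members lower and 0 higher. In Hx8 against Nx8, the median of -0.2549 became 0.01172 with DESeq2 size factors. Members lower numbered 1 with TMM scaling, 0 with DESeq2 size factors and 1 with 10 CPM added, where 4 were reported, and members higher numbered 1 with TMM scaling and 1 with DESeq2 size factors, where 0 were reported. In Hx10 against Nx10, the median of -0.7415 was -0.2473 with TMM scaling, -0.1869 with DESeq2 size factors and -0.5123 with 10 CPM added. Members lower numbered 9 with TMM scaling and 9 with DESeq2 size factors, where 19 were reported, and members higher 3 and 4, where 1 was reported. The scalings differ because the effective total of Hx10 is smaller than its UMI total while that of the other libraries is larger. The other alternatives (all barcodes, each cell weighted equally, a mean of 20 CPM, no filter, a total without mitochondrial and ribosomal genes, mesenchymal-like cells only) kept every median's direction and every count within 1.5 times. No paired analysis was possible because each condition has 1 library. Leaving out a replicate was not possible for the same reason. At the level of 1.08 CPM of Tm7sf2 in Hx10, the added 1 CPM, the scaling and counting error all bear on the log2 ratio. Counting error also limits class levels of fewer than 100 cells.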
